A study of Homo sapiens with 7 samples.

Results

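The 2 broad histone methylation marks of the PIXUL-ChIP-seq series, H3K36me3 and H3K27me3, were compared over megabase windows. Every peak of the 2 deposited lists on chromosomes 1 to 22 was taken, 39060 H3K36me3 peaks and 53835 H3K27me3 peaks, together 92895 of the 234838 peaks that the 6 lists of the series hold on these chromosomes. No peak was chosen by its height or its q-value. The comparison asked where in the genome the 2 marks lie relative to each other, at scales from single bases to 5 Mb, and which genes carry one mark, the other or both.

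HCT116 is a human colorectal carcinoma line, and all libraries came from these cells without any treatment that the labels name. For each antibody, chromatin of 1 well of 200000 crosslinked cells was sheared for 6 min in 100 μl in the PIXUL 96-well sonicator, and 1 ChIP-seq library was made. H3K36me3 and H3K27me3 therefore have 1 library each, no value below has a replicate check, and no difference between the marks was tested. Wells of the same line served for H3K4me1, H3K4me3, H3K9Ac and CTCF, whose lists are used here only to describe what lies beside the 2 marks. The entries of the H3K27me3 list, unlike those of the other 5, do not carry the name of the line. The sample label, which does, was followed. Sequencing depth cannot be read from the files, which hold peaks only.

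H3K36me3 is placed by SETD2, which travels with elongating RNA polymerase II, so that the mark follows the bodies of transcribed genes and increases towards their 3′ ends. H3K27me3 is placed by PRC2, the Polycomb complex with the catalytic subunit EZH2 or EZH1, over silenced genes and over broad domains around developmental regulators. Methylation of lysine 36 on a histone tail hinders PRC2 on the same tail, and the 2 marks are known to occupy separate stretches of chromatin.

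The 2 lists were alike in size. H3K36me3 peaks covered 201.6 Mb, or 7.51% of the sequenced bases of hg19 chromosomes 1 to 22, and H3K27me3 peaks covered 219.1 Mb, or 8.16%. The median width was 2108 bp for H3K36me3 and 1922 bp for H3K27me3. The median fold enrichment over the local background was 2.97 and 2.94, and the median −log10 q-value 1.78 and 1.64. These are low values next to the H3K4me3 list, whose median fold enrichment was 18.4 with a median −log10 q-value of 55.4. Most peaks of both lists are thus weak calls, and the counts below are given with stricter limits where these change them.

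The lists differed in the CpG content of the DNA under them. CpG dinucleotides are the sites of DNA methylation, and the enzyme DNMT3B binds H3K36me3. H3K36me3 peaks held 13.4 CpG per kb, H3K27me3 peaks 8.96 CpG per kb, and the sequenced bases of these chromosomes 9.97 CpG per kb. The GC content was closer, 43.3% under H3K36me3, 42.0% under H3K27me3 and 41.0% over all sequenced bases. For comparison, H3K4me3 peaks held 59.9 CpG per kb. The 150 bases at the middle of 4 intervals on which the account turns are printed next, from hg19, plus strand, 5′ to 3′, with each CpG in capitals. They are from the widest H3K27me3 peak, the pair of peaks inside BMI1, and the longest interval that both lists cover.
widest H3K27me3 peak, T-cell receptor region, chr14:22927692-22927841: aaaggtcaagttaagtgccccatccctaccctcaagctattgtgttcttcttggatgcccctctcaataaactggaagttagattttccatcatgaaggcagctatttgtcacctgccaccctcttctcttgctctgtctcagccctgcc
H3K36me3 peak of BMI1, exon and flanking intron, chr10:22618053-22618202: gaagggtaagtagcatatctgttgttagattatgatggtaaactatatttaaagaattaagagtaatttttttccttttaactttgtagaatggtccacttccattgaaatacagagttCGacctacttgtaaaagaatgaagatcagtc
H3K27me3 peak of BMI1, intron, chr10:22612597-22612746: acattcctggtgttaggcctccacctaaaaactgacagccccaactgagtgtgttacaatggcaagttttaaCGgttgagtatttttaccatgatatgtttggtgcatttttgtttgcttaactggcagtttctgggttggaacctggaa
interval under both marks, intron of CUZD1, chr10:124593773-124593922: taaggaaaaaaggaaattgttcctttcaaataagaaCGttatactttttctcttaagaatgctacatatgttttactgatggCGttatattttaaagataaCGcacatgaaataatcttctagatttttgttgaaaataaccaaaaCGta
The T-cell receptor stretch holds 0 CpG in a peak with 8.34 CpG per kb. In BMI1 each of the stretches holds 1 CpG, although the H3K27me3 peak had 15.1 CpG per kb as a whole and the H3K36me3 peak 4.96. The order of single peaks can therefore be opposite to that of the lists. The CUZD1 stretch holds 4 CpG in an interval with 8.00 CpG per kb.

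The chromosomes were cut into 1 Mb windows, and 2667 windows with at least 80% of their bases sequenced were kept. The median window had 4.41% of its bases under H3K36me3 peaks and 1.87% under H3K27me3 peaks, with 75th percentiles of 11.8% and 10.5%. H3K27me3 was the more unevenly spread mark. The 267 windows with the most of each mark held 49.9% of all H3K27me3 bases and 36.1% of all H3K36me3 bases, and the highest window reached 69.2% and 48.8%. Neighbouring windows resembled each other. The Spearman correlation of a window with the window 1 Mb further on was 0.47 for H3K27me3 and 0.38 for H3K36me3, so windows are not independent points, and all correlations over windows are descriptions without a p-value.

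At this scale the 2 marks met often. In 1754 windows (65.8%) both had peaks, 254 windows had H3K36me3 alone, 293 had H3K27me3 alone and 366 had neither. High coverage by both was seldom seen. H3K36me3 covered over 20% of 288 windows and H3K27me3 over 20% of 405 windows, and 8 windows were in both groups. The windows high in H3K36me3 had a median of 1.44% under H3K27me3, and the windows high in H3K27me3 a median of 3.21% under H3K36me3.

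A single correlation coefficient did not describe this relation. Over the 2667 windows Spearman's rho was 0.18 and Pearson's r was −0.12. With the 366 windows that hold neither mark left out, rho was −0.15, and over the windows with both marks it was −0.24. Leaving out windows by these same coverages lowers rho by construction, so the sign depends on which windows are taken and nothing is read from it.

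**Figure D1:**
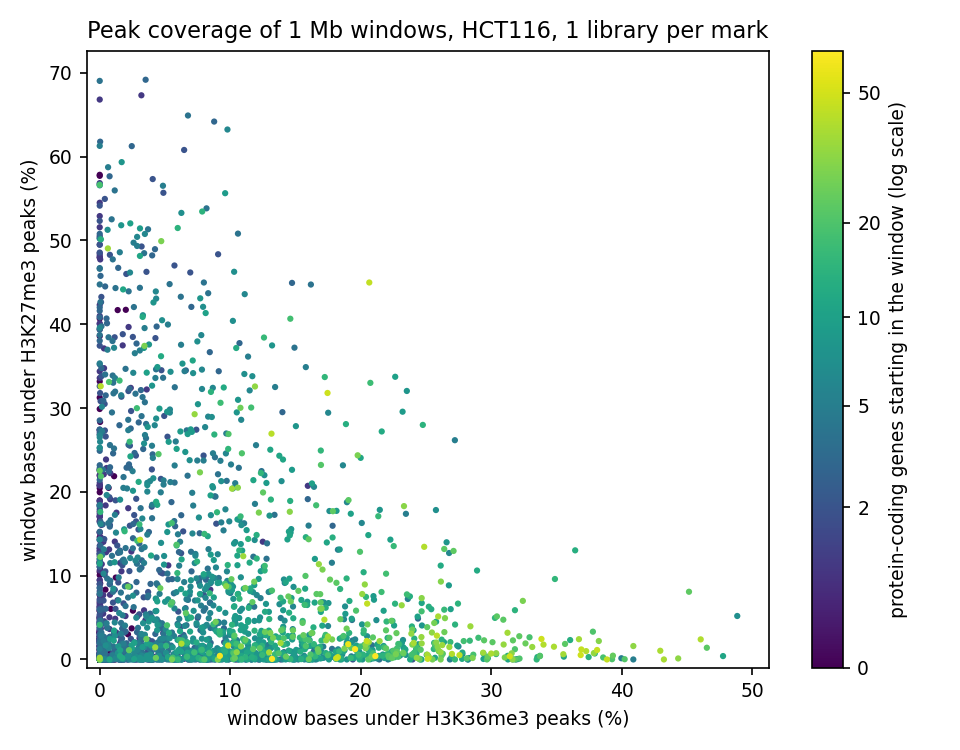
Each point is 1 of 2667 windows of 1 Mb, with the percent of sequenced bases under H3K36me3 peaks on the x axis, under H3K27me3 peaks on the y axis, and the number of protein-coding genes starting in the window as colour on a log scale. The points follow the axes, with 8 windows above 20% on both, and the gene-rich windows (light) lie along the H3K36me3 axis.

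The number of protein-coding genes that start in a window had a rho of 0.81 with H3K36me3 coverage (Pearson's r 0.67) and of 0.26 with H3K27me3 coverage (r −0.03). The other lists had a rho with gene number between 0.74 for H3K4me1 and 0.88 for H3K4me3, with 0.78 for H3K9Ac and 0.80 for CTCF. H3K27me3 was thus the only one of the 6 lists under 0.7, and its Pearson's r with gene number was near 0. With q-values under 0.01 and over 2-fold enrichment in both lists, rho was 0.79 for H3K36me3 and 0.25 for H3K27me3. It was 0.72 and 0.24 when the q-value had to be under 0.001. The peak limits of the study's methods differ between the marks. They ask for q-values under 1e-10 and over 5-fold enrichment for H3K36me3, and under 0.001 and over 2-fold for H3K27me3. These limits leave 90 H3K36me3 and 1536 H3K27me3 peaks, and under them the order turned, with a rho of 0.16 for H3K36me3 and 0.24 for H3K27me3. GC content moved with gene number (rho 0.70), with H3K36me3 (0.65) and with H3K27me3 (0.46), and its part in these values was not tested beyond the GC classes given below.

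H3K36me3 coverage was higher in each richer class of windows from 3 to 5 genes on. Its median was 0 in the 330 windows without a gene and in the 573 windows with 1 to 2 genes. It was 3.80% with 3 to 5 genes, 9.38% with 6 to 10, 15.3% with 11 to 20 and 20.6% with over 20. The H3K27me3 median had its highest value, 4.46%, in the windows with 3 to 5 genes. It was 0 without genes, 0.41% with 1 to 2 genes, 2.51% with 6 to 10, 2.52% with 11 to 20 and 2.28% with over 20. The quartiles of H3K27me3 were wide, from 0.49% to 21.1% in the class of 3 to 5 genes. The 550 windows with over 10 genes are 20.6% of all windows. They held 48.8% of the H3K36me3 bases and 17.03% of the H3K27me3 bases.

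The relation between the marks had another sign in gene-poor than in gene-rich windows. Spearman's rho of the 2 coverages was 0.15 in windows without genes and 0.24 with 1 to 2 genes, where most windows hold little of either mark. It was −0.13 with 3 to 5 genes, −0.15 with 6 to 10, −0.34 with 11 to 20 and −0.36 with over 20. Among windows with over 20 genes, H3K36me3 coverage was the higher of the 2 in 86.1%, and among windows with 1 to 2 genes H3K27me3 was the higher in 50.4% and H3K36me3 in 22.9%. Classes of GC content gave the same order. With the windows in 5 classes of equal size by GC, rho was 0.24, 0.03, −0.27, −0.32 and −0.52 from the lowest to the highest class. In the class of highest GC the rho with gene number was 0.62 for H3K36me3 and −0.38 for H3K27me3.

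**Figure D2:**
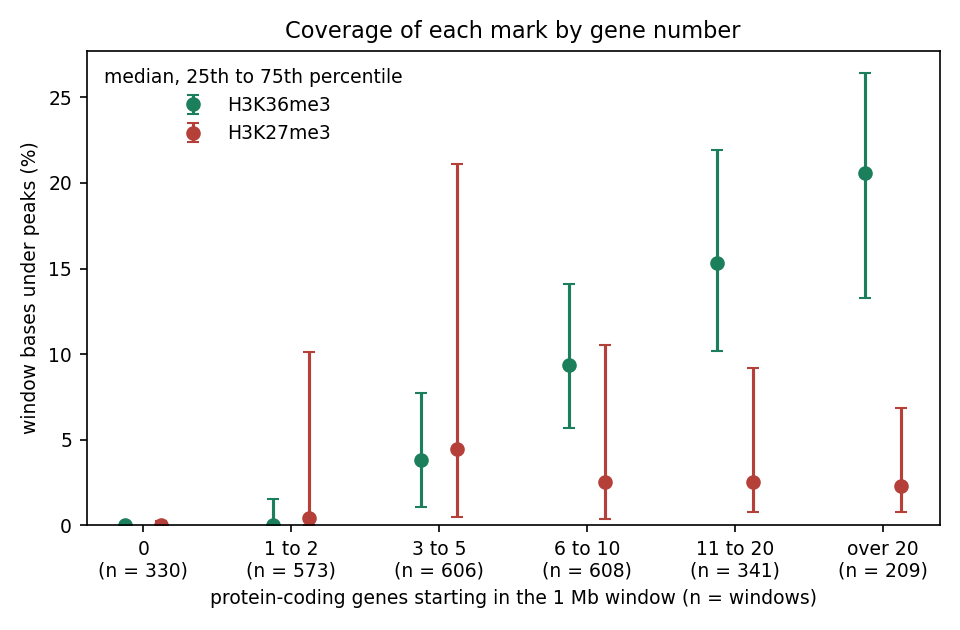
Points are the median percent of window bases under H3K36me3 (green) and H3K27me3 (red) peaks and bars run from the 25th to the 75th percentile, in 6 classes of windows by number of protein-coding genes. H3K36me3 medians run from 0 to 20.6%, while the H3K27me3 median is highest, 4.46%, at 3 to 5 genes.

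First among the windows by H3K36me3 coverage was chr17:35000001-36000000, with 48.8% under H3K36me3 and 5.19% under H3K27me3. There ACACA, the acetyl-CoA carboxylase of fatty acid synthesis, had 78.6% of its body under H3K36me3 peaks, TADA2A, a subunit of histone acetyltransferase complexes, 81.3% and AATF 76.5%, whereas LHX1, a homeobox gene, had neither mark. The next was chr3:47000001-48000000, with 47.7% under H3K36me3 and 0.40% under H3K27me3. It holds SETD2, the enzyme that places H3K36me3, with 48.3% of its body under H3K36me3, and SMARCC1, a subunit of the SWI/SNF remodelling complexes, with 91.4%.

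The other windows among the 5 highest in H3K36me3 were at the ends of chromosomes 17 and 16. Of the bases of chr17:80000001-81000000, 46.5% were under H3K36me3, and FASN, the fatty acid synthase, had 94.5% of its body covered. The adjacent chr17:79000001-80000000 had 46.0%, with 40 protein-coding genes. In both of these gene-rich windows H3K27me3 still lay on single genes. CD7, a T-cell surface protein, had 66.1% of its body under H3K27me3, and GCGR, the glucagon receptor, 66.9%. The window chr16:89000001-90000000 had 45.1% under H3K36me3 and 8.08% under H3K27me3, and there FANCA of the Fanconi anaemia DNA repair pathway had 98.0% under H3K36me3 and DPEP1, a membrane dipeptidase, 30.9% under H3K27me3.

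The 5 windows with the most H3K27me3 held few gene starts, 1 to 4 each. The 405 windows with over 20% under H3K27me3 were nearer to all windows, with a median of 4 genes against 5. In chr1:37000001-38000000, 69.2% of bases were under H3K27me3 and 3.52% under H3K36me3. Its 3 genes had one mark each: GRIK3, a kainate-type glutamate receptor, had 91.5% of its body under H3K27me3, and ZC3H12A, a ribonuclease, and MEAF6, a subunit of histone acetyltransferase complexes, had 91.2% and 93.5% under H3K36me3. In chr14:22000001-23000000, with 69.0% under H3K27me3 and none under H3K36me3, the 4 protein-coding genes are olfactory receptors. The widest H3K27me3 peak, of 142519 bp from 22856508 to 22999026, lies in this window over the T-cell receptor delta and alpha segments.

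The other 3 of the 5 windows highest in H3K27me3 had 1 to 4 gene starts each. The window chr10:113000001-114000000 had 67.3% under H3K27me3 and its only gene start is that of GPAM, a glycerol-3-phosphate acyltransferase, with 48.7% of the body under H3K36me3 and 8.4% under H3K27me3. In chr9:89000001-90000000, with 66.8%, the only gene was GAS1, a membrane protein of Hedgehog signalling, wholly under H3K27me3. In chr7:103000001-104000000, with 64.9%, RELN, which encodes the secreted neuronal protein reelin, had 84.5% under H3K27me3, while ORC5, a subunit of the origin recognition complex, had 67.03% under H3K36me3. In the same window LHFPL3 had 62.5% under H3K27me3, and SLC26A5 had 18.5% under H3K36me3 and 7.4% under H3K27me3. Of these 5 windows 3 thus held genes under H3K36me3, and in those of chromosomes 14 and 9 H3K36me3 covered no base.

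In the windows where both marks were high, genes with a single mark were the most frequent, as they were in the windows above. Ranked by the lower of the 2 coverages, the first window was chr16:16000001-17000000, with 27.2% under H3K36me3 and 26.2% under H3K27me3. The second was chr16:23000001-24000000, with 24.8% and 28.0%. In the latter, the DNA repair gene PALB2 and the mitotic kinase gene PLK1 had 91.6% and 80.5% under H3K36me3 and none under H3K27me3. PRKCB, a protein kinase C gene, and SCNN1G, a subunit of the epithelial sodium channel, had 83.3% and 71.03% under H3K27me3 and none under H3K36me3. The same division was seen in chr21:33000001-34000000, where SOD1, the cytosolic superoxide dismutase, had 81.4% under H3K36me3 and HUNK, a kinase gene, 71.7% under H3K27me3. Of the 46 genes that start in these 5 windows, 5 carried both marks (10.9%, against 4.45% of all genes), 39 one mark (84.8%, against 69.6%) and 2 neither. The share with one mark was 84.5% in the 5 windows highest in H3K36me3 and 84.6% in the 5 highest in H3K27me3. All these windows were chosen by coverage of the same marks, so an excess of marked genes over all genes follows from the choice. Of the windows, 4 are on chromosome 16, which carries a segment gained in HCT116. The limits of that segment were not used, so whether these windows lie in it was not tested. Several of the windows hold NPIP and NOMO genes, which have near-identical copies, so their coverage is uncertain.

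The mean coverage of whole chromosomes spanned a wider range for H3K36me3. It was between 4.34% on chromosome 18 and 17.7% on chromosome 19, with 16.6% on chromosome 17. For H3K27me3 it was between 4.202% on chromosome 4 and 13.6% on chromosome 16. Chromosomes 8 and 10 followed chromosome 16 with 12.2% and 11.8%. These 3 are among the 4 chromosomes with gained segments, and the fourth, chromosome 17, had 8.30%. The part of the gains in these values was not tested, and without the 4 chromosomes the correlations over windows moved by less than 0.1. Within single chromosomes, the rho of H3K36me3 with gene number was between 0.57 and 0.88. The rho of the 2 marks with each other was positive on 18 chromosomes and negative on 4, with the lowest value on chromosome 22 (−0.57) and the highest on chromosome 21 (0.64), chromosomes with 35 and 33 windows.

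The meeting of the marks depended on scale. Of the 10 kb windows with H3K27me3, 1.11% also held H3K36me3, against 15.5% of all 10 kb windows. At 100 kb the shares were 28.0% and 34.8%. At 1 Mb they were 85.7% and 75.3%, and at 5 Mb 99.6% and 98.1%. The share among windows with H3K27me3 was thus below that of all windows at 10 and 100 kb and above it at 1 and 5 Mb. Spearman's rho of the coverages was −0.19 at 10 kb, −0.18 at 100 kb, 0.18 at 1 Mb and 0.24 at 5 Mb. Pearson's r was −0.13, −0.18, −0.12 and 0.10, so the coefficients differed in sign at 1 Mb. The 10 kb, 100 kb and 5 Mb windows were added after the values at 1 Mb had been seen.

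At the level of bases the 2 lists were nearly separate. They shared 95.4 kb, which is 0.0435% of the H3K27me3 bases and 0.0473% of the H3K36me3 bases, although each list covers over 7% of the sequence. Of the H3K36me3 peaks 126 (0.323%) overlapped an H3K27me3 peak, and of the H3K27me3 peaks 132 (0.245%) overlapped an H3K36me3 peak. The 134 overlapping pairs shared a median of 479 bp, and 31 shared over 1000 bp. Under stricter limits, a q-value under 0.01 and over 2-fold enrichment in both lists, the shared part of the H3K27me3 bases was 0.0243%. It was 0.0597%, above the value of the full lists, when the q-value had to be under 0.001, and 0 with the limits of the study's methods. The other lists overlapped each of the marks far more than the marks overlapped each other. H3K4me1 peaks lay over 6.64% of the H3K36me3 bases and 0.817% of the H3K27me3 bases, and H3K9Ac peaks over 5.34% and 0.486%.

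The longest shared interval, 6377 bp at chr10:124590660-124597036, lies in CUZD1, where a whole H3K36me3 peak (fold enrichment 3.14) is inside an H3K27me3 peak (3.99). The next, of 3876 bp, was in ZNF717 at chr3:75799224-75803099, and stretches of 2166 and 1641 bp were in CDC27 on chromosome 17. ZNF717 and CDC27 have near-identical copies elsewhere in the genome, so the origin of these reads is uncertain. HMGA2, an architectural chromatin protein expressed in embryos and many tumours, held several of the longest intervals. Inside 1 H3K36me3 peak of chr12:66290791-66339734 (fold enrichment 3.53), H3K27me3 peaks shared 2529 bp and 2446 bp, and a separate H3K36me3 peak of the gene shared 1483 bp. With 1 library per mark, overlap on the same chromatin and on different alleles or cells cannot be told apart.

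Taken over all peaks, the median distance to the nearest peak of the other mark was over 100 kb for both lists. From an H3K36me3 peak the nearest H3K27me3 peak was 124 kb away in the median, with quartiles of 56.4 and 261 kb. From an H3K27me3 peak the nearest H3K36me3 peak was 209 kb away, with quartiles of 89796 and 395202 bp. The nearest peak of the same mark was 2.23 kb away for H3K36me3 and 2.16 kb for H3K27me3, where the peak caller leaves no gap under 1177 bp. Within 10 kb of a peak of the other mark lay 3.23% of the H3K36me3 peaks and 2.28% of the H3K27me3 peaks. The medians lengthen as peaks are removed: under the same stricter limits they were 284041 and 246810 bp.

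**Figure D3:**
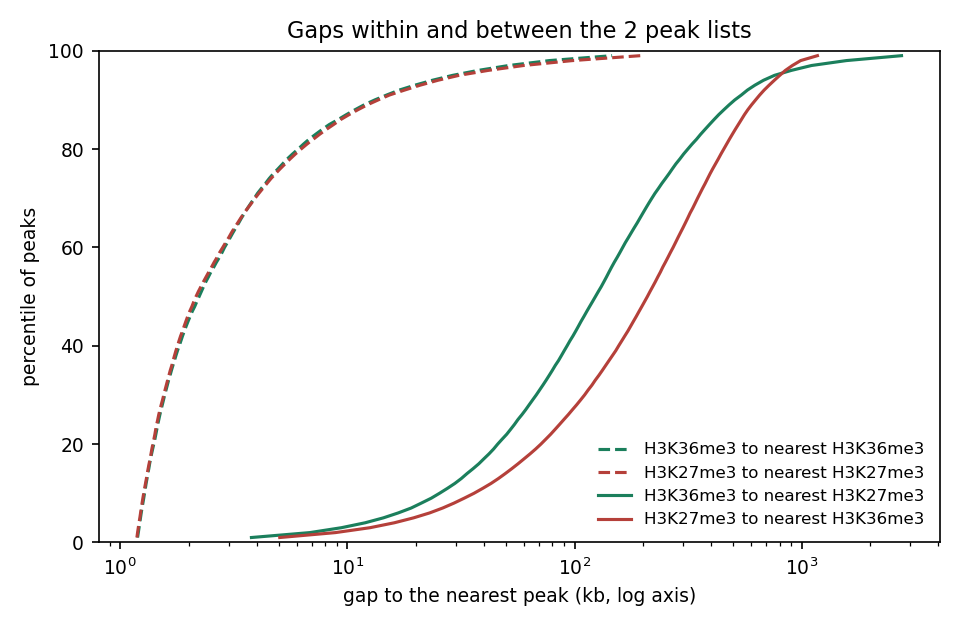
Percentiles of peaks (y axis) by the gap to the nearest peak in kb (x axis, log scale), to the same mark (dashed) and to the other mark (solid), for H3K36me3 (green) and H3K27me3 (red). The dashed lines lie together with medians of 2.23 and 2.16 kb, and the solid lines lie to the right with medians of 124 and 209 kb.

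Peaks of one mark followed each other in long runs. In the joint order along the chromosomes, 6637 of 92873 neighbouring pairs joined opposite marks (7.15%, 95% Wilson interval 6.98 to 7.31%, which covers counting error only), 35730 joined H3K36me3 peaks and 50506 joined H3K27me3 peaks. With peaks of 1 list within 3000 bp merged, the share of opposite pairs was 11.98%. It was also higher with fewer peaks, 11.7% under the stricter limits and 19.6% for q-values under 0.001. The median gap was 35.0 kb between opposite marks, 3.67 kb between H3K36me3 peaks and 3.58 kb between H3K27me3 peaks. A run of H3K36me3 peaks uninterrupted by H3K27me3 had a median of 7 peaks over 104 kb, and a run of H3K27me3 peaks a median of 4 peaks over 64.8 kb. Runs longer than 1 Mb numbered 158 for H3K36me3 and 332 for H3K27me3. The run with the most H3K27me3 peaks, 281 on chromosome 4, spanned 3.31 Mb with 9 protein-coding gene starts and was 43.4% covered. The H3K36me3 run with the most peaks, 194 on the same chromosome, spanned 9.77 Mb with 47 gene starts and was 7.33% covered.

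The gaps between opposite marks often held a gene start or a CTCF site. CTCF is a zinc-finger protein known to bind at boundaries of chromatin domains, and H3K4me3 marks active promoters. Among gaps from 1 bp to 10 kb, 38.4% of the 1052 between opposite marks held the transcription start site (TSS) of a protein-coding gene, compared with 6.91% of those between H3K36me3 peaks and 1.79% of those between H3K27me3 peaks. A CTCF peak was in 37.5%, 10.4% and 7.96% of them. The gaps of this class differ in length, with medians of 5893, 2490 and 2542 bp, and the part of length was not tested beyond the next class. Among gaps of 10 to 30 kb, whose medians of 18783, 15804 and 15287 bp are closer, a TSS was in 49.97%, 28.7% and 6.90%. A CTCF peak was in 58.3%, 35.3% and 26.9% of these. For gaps of 100 to 300 kb the TSS shares were 71.3%, 75.2% and 36.2%, and the order of the opposite and the H3K36me3 pairs was turned. The CTCF shares of that class were nearer to each other, 94.6%, 92.6% and 81.4%.

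The side on which H3K27me3 lay was read against the gene at the border. In 3035 of 6637 opposite pairs (45.7%), the edge of the H3K36me3 peak was inside a protein-coding gene whose 5′ end pointed to the H3K27me3 peak. In 1714 pairs (25.8%) the 3′ end did. The edge was in no protein-coding gene in 26.0%, and in genes of both strands in 2.46%. Between neighbouring H3K36me3 peaks, the right edge of the left peak was in a protein-coding gene in 89.9%. In genes with H3K36me3 alone, the mark covered 31.2% of the first 5 kb past the 3′ end and 12.5% of the 5 kb before the 5′ end. An edge past the 3′ end can lie in no gene, and its part in the difference between the sides was not tested. Pairs with gaps under 30 kb gave 43.95% and 25.3%.

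The annotation (GENCODE 44 on hg19) holds 19229 protein-coding genes on these chromosomes. A gene was said to carry a mark when at least 1 base of its body was under a peak. H3K36me3 was on 11066 genes (57.5%), H3K27me3 on 4032 genes (21.0%) and both on 855 genes (4.45%), while 4986 genes had neither. The 855 are 7.73% of the genes with H3K36me3 and 21.2% of the genes with H3K27me3. This count depends on the calls. It was 247 under the stricter limits used above, 60 when the q-value had to be under 0.001, and 0 with the limits of the study's methods, which leave 90 H3K36me3 peaks. Requiring 1000 bp of each mark gave 505 genes and requiring 10% of the body under each gave 59.

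The marks also differed in how far they keep to genes. Protein-coding genes take 46.5% of the sequenced bases. They held 93.2% of the H3K36me3 bases and 43.7% of the H3K27me3 bases. H3K4me3 within 1 kb of the TSS was found at 91.0% of the genes with H3K36me3 alone, 21.4% of those with H3K27me3 alone, 28.8% of those with neither and 69.7% of those with both. The value of the genes with both marks lay between those of the genes with a single mark.

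Genes with both marks were long. Their median length was 101 kb, against 31.1 kb with H3K36me3 alone, 38.9 kb with H3K27me3 alone and 12.1 kb with neither. Both marks were on 0.429% of the genes under 10 kb, 2.05% from 10 to 30 kb, 5.24% from 30 to 100 kb, 11.2% from 100 to 300 kb and 16.3% over 300 kb. A longer gene offers more bases to either mark. In genes over 300 kb, H3K27me3 was on 58.9% and H3K36me3 on 36.96%, while from 30 to 100 kb H3K27me3 was on 20.04% and H3K36me3 on 68.8%. Another protein-coding gene overlapped 448 of the 855 (52.4%), where the marks cannot be assigned to 1 gene, and 407 overlapped none.

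Inside the genes with both marks, H3K27me3 was nearer the 5′ end in 563 of 855 (65.8%, 95% Wilson interval 62.6 to 68.9%, counting error only). The median position of the covered bases was 42.2% of the way from the 5′ to the 3′ end for H3K27me3 and 69.1% for H3K36me3. In genes with a single mark it was 50% for H3K27me3 and 58.0% for H3K36me3. The closest peaks of the 2 marks in a gene were 16.3 kb apart in the median, and in 72 genes they touched or overlapped. Both shares were small, with medians of 6.89% of the body under H3K36me3 and 2.77% under H3K27me3, so most of these genes carry a stretch of each mark at some distance.

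**Figure D4:**
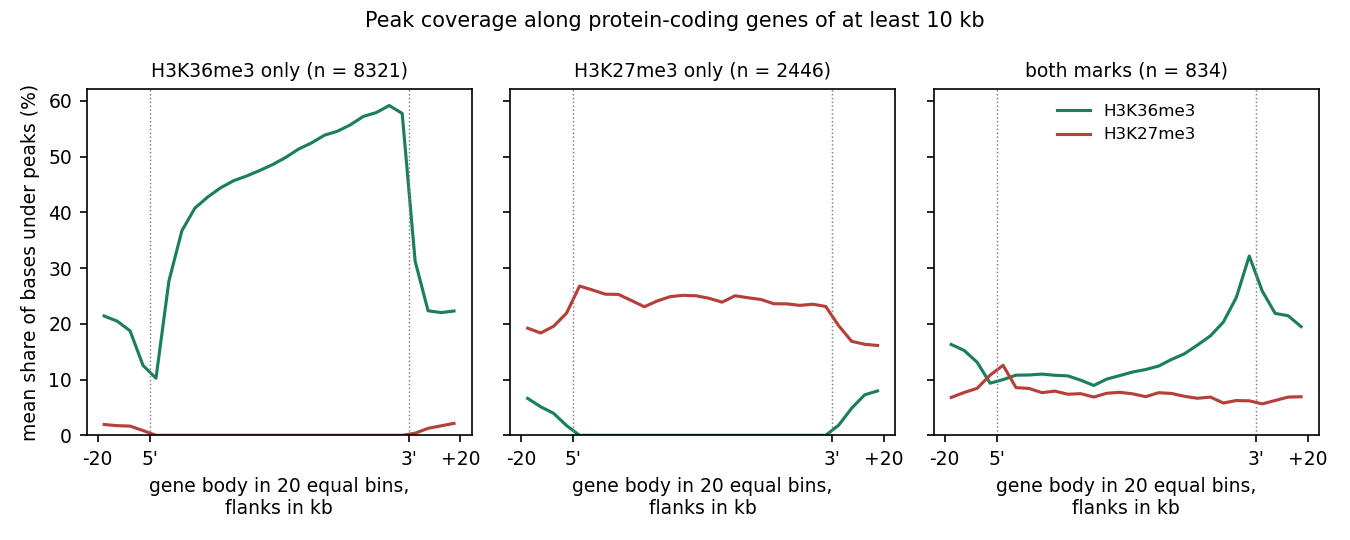
Mean percent of bases under H3K36me3 (green) and H3K27me3 (red) peaks in 20 equal bins of the gene body and in 20 kb on each side, for genes of at least 10 kb with H3K36me3 alone (8321), H3K27me3 alone (2446) and both (834). The classes fix that the other mark is 0 inside the bodies of the left and middle panels. H3K36me3 is highest near the 3′ end, 59.2% and 32.2% in the left and right panels, and H3K27me3 in genes with both marks is highest, 12.6%, in the first bin.

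BMI1 showed the pattern on a small scale. It encodes a subunit of PRC1, the Polycomb complex that binds H3K27me3, and lies at chr10:22610028-22620413 on the plus strand. Its TSS was under an H3K4me3 peak (fold enrichment 16.4). An H3K27me3 peak of 3243 bp (5.02) lay from 1023 to 4265 bp downstream of the TSS, and an H3K36me3 peak of 5038 bp (4.18) from 5581 bp on, beyond the 3′ end of the gene. The 1.315 kb between them were mostly under a further H3K4me3 peak (10.3). The middle bases of these peaks are printed above. The readthrough gene COMMD3-BMI1 shares these peaks, with 21.8% of its body under H3K36me3 and 31.7% under H3K27me3. It also holds an H3K27me3 peak of 921 bp (3.14) at chr10:22608250-22609170, upstream of the BMI1 TSS.

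Other genes had the marks in the opposite order. CHMP6, a subunit of the ESCRT-III membrane machinery at chr17:78965398-78983317, had H3K36me3 over 42.8% of its body from 1534 to 9198 bp after the TSS (fold enrichment 4.64), and H3K27me3 over 38.5% from 10011 to 16911 bp (4.36), after a gap of 0.812 kb. Another protein-coding gene overlaps CHMP6, so its marks cannot be assigned to 1 gene. In UQCRB, a subunit of mitochondrial complex III at chr8:97235175-97247774, H3K36me3 began 1354 bp after the TSS (4.79). The H3K27me3 peak there was 33622 bp wide (4.05), began 8839 bp after the TSS and reached past the 3′ end, so the mark in the gene is the edge of a wider domain.

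ELMO2, which acts in cell engulfment and migration, had H3K36me3 on 31.2% and H3K27me3 on 31.0% of its body at chr20:44994689-45061624. The H3K27me3 peak was 22675 bp wide and lay upstream of the TSS of its canonical transcript, mostly inside the annotated gene, and the H3K36me3 peaks lay from 12462 to 40477 bp downstream. PROZ, the plasma protein Z, had H3K27me3 (5.75) in the 5′ part and H3K36me3 (3.40) in the 3′ part and no H3K4me3 peak at its TSS. HRNR, which encodes the epidermal protein hornerin from a highly repetitive exon, had 42.9% under H3K27me3 and 22.9% under H3K36me3, and its repeats make the placement of reads uncertain. CUZD1, NKPD1 and a readthrough gene on chromosome 12, ENSG00000255639, complete the 10 genes of at least 10 kb with the highest lower share, and another protein-coding gene overlapped each of these 3.

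Genes with over 90% of the body under H3K36me3 outnumbered those with over 90% under H3K27me3, and the order was turned at full coverage. Of the 14335 genes of at least 10 kb, 847 had over 90% of the body under H3K36me3 and 54 over 90% under H3K27me3, counting genes without the other mark. The whole body was covered in 3 genes by H3K36me3 and in 23 by H3K27me3. Of the genes over 90%, H3K4me3 was at the TSS of 837 of the former and 3 of the latter. CAD, the enzyme that starts pyrimidine synthesis, had 100% of its 26.6 kb under H3K36me3. LRPPRC, a mitochondrial RNA-binding protein, had 98.6% of 110 kb, IPO7, a nuclear import receptor, 98.5% of 63.5 kb and FAT1, a large cadherin-like membrane protein, 99.2% of 139 kb. RIT1, HNRNPC, LXN and the unnamed gene ENSG00000288841 were the others named by this rule, at 98.6% or more. The widest H3K36me3 peak, 162381 bp with a fold enrichment of 3.76, lay over MDN1, which encodes a giant ATPase of ribosome assembly.

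The 8 genes named as the longest wholly under H3K27me3 include several known for expression in brain, blood or olfactory cells. The body was covered to 100% in PDYN, which encodes the opioid precursor prodynorphin, in LILRB1, an inhibitory receptor of leukocytes, in CLEC2B, a lectin of lymphoid cells, in the neuronal phosphatase regulator PPP1R17, in LRRC52 and in the olfactory receptor genes OR8A1 and OR56A1. CEACAM5, the carcinoembryonic antigen, was covered over all of its 21.9 kb. It is a marker of colon epithelium and was the only 1 of 11 such markers with over 5% under H3K27me3. None of these 8 genes had an H3K4me3 peak at its TSS.

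The lists of cell markers were compared with the label of the line. Of 11 markers of colon epithelium 7 carried H3K36me3 (63.6%, against 57.5% of all genes), with KRT19 (76.7%), KRT18 (71.2%), CDX2 (47.8%), EPCAM (40.4%), CDH1 (26.8%), KRT8 (12.6%) and VIL1 (9.97%). CEACAM5, CDX1 (3.3%) and LGR5 (3.0%) had H3K27me3 (27.3%, against 21.0% of all genes), and ASCL2 neither mark. Of 17 markers of other cell types 3 carried H3K36me3 (17.6%) and 8 H3K27me3 (47.1%). Those with H3K36me3 were COL1A1 (47.1%), SYT1 (18.6%) and ACTN2 (1.0%). The highest shares of H3K27me3 were in APOB (73.1%), MYH2 (70.1%) and RBFOX3 (69.3%).

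Core machinery of the cell carried H3K36me3 nearly throughout, against 57.5% of all genes. It was on 65 of 66 splicing factor genes, 35 of 35 translation factor genes and 31 of 31 proteasome genes, with median shares of 89.2%, 87.5% and 85.5% of the body, where the median over all genes was 6.45%. H3K27me3 was on 1, 2 and 1 of them. The exception in extent was EIF3E, with 52.8% of its body under H3K27me3 and 17.6% under H3K36me3. H3K4me3 was at the TSS of every gene of these 3 lists, against 62.4% of all genes and 91.0% of the genes with H3K36me3 alone.

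Genes of the 2 methylation systems themselves were also under H3K36me3. Of 25 writers, erasers and readers of H3K36 methylation 24 carried it (96.0%, against 57.5% of all genes). Its share of the body was 91.7% in BRPF1, 88.5% in PSIP1, 71.6% in NSD2 and 69.9% in DNMT3B. Of 9 genes of PRC2 and of H3K27 demethylases 8 carried H3K36me3 (88.9%) and 0 H3K27me3. The 95% Wilson interval of the latter, 0 to 29.9%, includes the 21.0% of all genes. The H3K36me3 share was 97.8% in SUZ12, 45.6% in EZH2, 27.2% in EED and 51.7% in KDM6B, an H3K27 demethylase.

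Neuronal and sensory genes had the reverse order, against 21.0% of all genes with H3K27me3. It was on 43 of 56 ion channel and neurotransmitter receptor genes (76.8%), with a median share of 17.4% of the body. The highest shares included HTR2A (88.5%), SCN3A (83.8%), KCNA1 (74.3%) and DRD2 (66.0%), while others held a trace, such as GRM7 (0.06%). CACNA1H was the only gene of the list with H3K36me3 alone. The genes of this list are long, with a median of 248 kb. Of all genes, H3K27me3 was on 32.9% of those from 100 to 300 kb and 58.9% of those over 300 kb, and the part of length was not tested. Of 73 olfactory receptor genes 40 carried H3K27me3 and 2 H3K36me3, OR51I1 and OR52D1, which were wholly covered. Of 35 very long synaptic and fragile-site genes 23 carried H3K27me3, and their median length of 1338 kb gives many bases in which a peak can fall.

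Developmental regulators were divided. Of 80 developmental transcription factor genes other than HOX, 34 carried H3K27me3 (42.5%, against 21.0% of all genes). Among them were SOX14 at 100%, PAX3 at 96.9%, LHX8 at 86.8% and OTX2 at 80.5%. H3K36me3 was on 13 of the 80 (16.25%, against 57.5%), and 37 carried neither mark (46.25%, against 25.9%). Of 39 HOX genes 15 carried H3K36me3 (38.5%) and 5 H3K27me3 (12.8%), both below the 57.5% and 21.0% of all genes. In the HOXA cluster HOXA4 had 72.3% under H3K27me3, its neighbour HOXA5 had 74.1% under H3K36me3, and HOXA3 had 28.1% under H3K27me3 and 9.0% under H3K36me3. In the HOXB cluster HOXB5 (100%) and HOXB6 (73.6%) were under H3K36me3. The HOX genes are short, with a median of 4.22 kb, so a single peak can cover one.

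The KRAB zinc finger genes of chromosome 19 seldom carried H3K27me3. It was on 1 of 142 (0.704%), against 21.0% of all genes, with 2.6% of the body of ZNF285. H3K36me3 was on 85 (59.9%), near the 57.5% of all genes, with ZNF317 at 94.8%, ZNF544 at 92.7% and ZNF587 at 89.9%, and 56 had neither mark. These repressors of transposable elements arose by duplication, and some have similar copies whose reads cannot be separated. Cadherin genes had H3K27me3 on 9 of 32 (28.1%, 95% Wilson interval 15.6 to 45.4%), near the 21.0% of all genes. H3K36me3 was on 5 of them (15.6%, against 57.5%). Their median length was 149 kb, and H3K27me3 was on 32.9% of all genes from 100 to 300 kb. Some held a trace only, such as CDH12 with 0.1% under H3K27me3 and PCDHGA1 with 0.1% under H3K36me3.

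Imprinted genes, which are expressed from 1 parental allele, had both marks on 6 of 37 (16.2%), against 4.45% of all genes, but with a median length of 64.4 kb. GNAS had 24.5% under H3K36me3 and 13.1% under H3K27me3, and MKRN3 7.2% and 14.2%. IGF2R had 45.1% under H3K36me3 with 0.4% under H3K27me3, and KCNQ1 held 0.2% and 0.1%. In the list of very long genes 6 of 35 carried both marks (17.1%), near the 16.3% of all genes over 300 kb. In the list of ion channels 7 of 56 did (12.5%), near the 11.2% of all genes from 100 to 300 kb. Among the latter KCND3 had 67.4% under H3K27me3 and 0.2% under H3K36me3. In 12 genes of the whole annotation both marks covered at least 20% of the body.

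**Figure D5:**
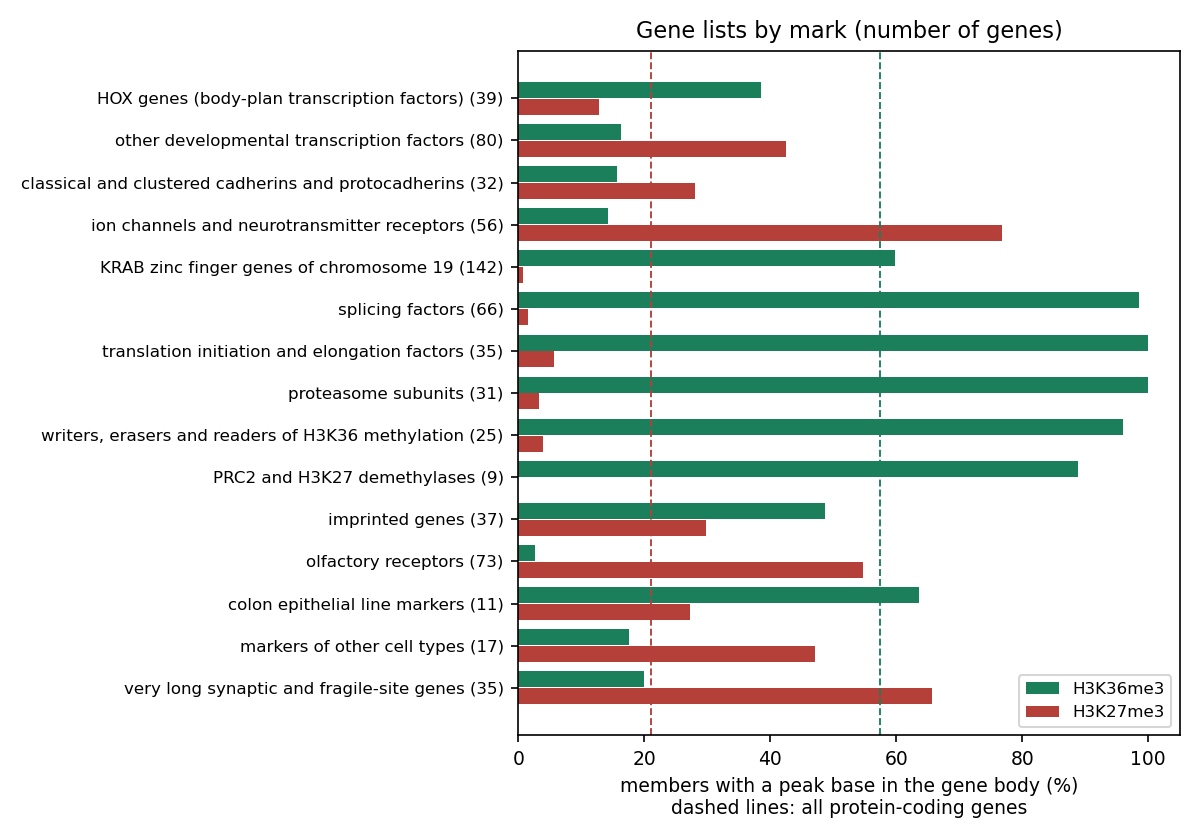
Bars give the percent of members of 15 gene lists with at least 1 base of the body under H3K36me3 (green) or H3K27me3 (red) peaks, with the number of genes in brackets, and the dashed lines give 57.5% and 21.0% of all protein-coding genes. Splicing, translation and proteasome genes reach 98.5 to 100% for H3K36me3, and ion channel genes 76.8% for H3K27me3.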

How the data were processed

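The peak lists of HCT116 cells that the authors deposited were used, 1 library per antibody. The authors aligned reads to hg19 with BWA 0.7.12. Their methods name MACS2 with a broad cutoff of 0.1, whereas the processing notes list MACS 1.4.2. For each peak the authors deposited a fold enrichment (a linear ratio), −log10 values of the p-value and q-value, and an integer score that was not used. Peaks were called per library. The depth is not given in the files and limits how many peaks are called.

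All peaks on chromosomes 1 to 22 were used. Covered bases were divided by sequenced bases in 1 Mb windows with at least 80% sequenced. Genes came from GENCODE 44 on hg19, and a TSS from the canonical transcript where there is one. Overlaps required 1 bp. Shares carry 95% Wilson intervals where printed, for counting error only. Windows, peaks and genes are not replicates, so no test was run. The genes and windows named are the 5 windows highest in each mark and in the lower of the 2, and genes of at least 10 kb with the highest shares (10 with both marks, 8 with each mark alone), the widest peaks, the longest shared intervals, and the leading members of 15 gene lists. GCGR, CD7 and other genes inside these windows were chosen after their values were seen. The members and lists were chosen with earlier results of these data known. Python 3.11.15 with numpy 2.4.6, pandas 2.3.3 and scipy 1.17.1 was used, and overlaps and gaps were checked against bedtools 2.31.1 and tested on simulated data.

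The alternatives were stricter peak limits, other window sizes and window filters, peak numbers in place of bases, chromosomes left out, Pearson's correlation, other measures of gene density, merged peaks and other minimum overlaps with genes. The H3K27Ac library was not analysed here. The sequence of the widest H3K36me3 peak is not reported here.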

Additional observations from a re-analysis of the deposited data

How the results depend on the processing

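No paired analysis was possible because H3K36me3 and H3K27me3 have 1 library each. Over windows, the correlation of the 2 marks (0.18) was −0.12 with Pearson's coefficient, −0.19 in windows of 10 kb, −0.18 in windows of 100 kb, −0.15 in windows with at least 1 of the marks and −0.24 in windows with both, the last 4 chosen after seeing the data, and 0.055 with the study's peak limits. That of H3K36me3 with gene number (0.81) was 0.16 with these limits, which leave 90 H3K36me3 peaks, 0.67 with Pearson's coefficient and 0.47 with the percent of bases in gene bodies. That of H3K27me3 with gene number (0.26) was 0.24 with the study's limits, above that of H3K36me3, and −0.032 with Pearson's coefficient. Other window sizes and filters, peak numbers and chromosomes left out moved these 3 values by less than 0.1 each.

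The median gap from H3K36me3 to H3K27me3 (123596 bp) was 579152 bp with the study's limits, 284041 bp for q-values under 0.01 with over 2-fold enrichment, 752518 bp for q-values under 0.001, 120710 bp with merged peaks and 132346 bp without chromosomes 8, 10, 16 and 17. In the other direction (209240 bp) it was 14690506, 246810, 251811, 178188 and 213425 bp. Opposite pairs (7.15%) were 9.48%, 11.7% and 19.6% under the 3 peak limits and 11.98% with merged peaks. The shared part of H3K27me3 bases (0.0435%) was 0, 0.0243% and 0.0597%. Genes with both marks (855) numbered 0, 247 and 60, then 505 with 1000 bp of each mark, 59 with 10% of the body under each, 1612 with 5000 bp added on each side, and 407 among genes that overlap no other, the last chosen after seeing the data. Fewer peaks enter under each peak limit. Beyond this the cause was not tested. The depth of the lists is unknown and there is 1 library per mark, so no value has a replicate error.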

Other observations

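The width of a peak moved with its distance from the other mark, in opposite directions for the 2 marks. The 1261 H3K36me3 peaks within 10 kb of an H3K27me3 peak had a median width of 2626 bp, those at 10 to 100 kb 2318 bp, those at 100 kb to 1 Mb 1986 bp and the 1363 farther than 1 Mb 1832 bp. The 1225 H3K27me3 peaks within 10 kb of an H3K36me3 peak had a median width of 1404 bp, those at 10 to 100 kb 1659 bp and those at 100 kb to 1 Mb 2079 bp, while the 1021 farther than 1 Mb had 1533 bp. The median fold enrichment stayed between 2.88 and 3.16 in all 8 classes. These classes were formed after seeing the data, and no test was run.

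Genes with both marks were divided by which mark lay nearer the 5′ end. In the 563 genes with H3K27me3 nearer, H3K4me3 was within 1 kb of the TSS in 376 (66.8%, 95% Wilson interval 62.8 to 70.6%) and H3K27me3 in 170 (30.2%). In the 292 genes with H3K36me3 nearer, H3K4me3 was there in 220 (75.3%, 70.1 to 79.9%) and H3K27me3 in 29 (9.93%). The division uses the positions of H3K27me3 itself, so its share near the TSS is a description. The H3K4me3 list took no part in the division, and the intervals cover counting error only.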
